A study of Danio rerio with 4 samples.

Results

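The genes described here are 8 myosin genes of zebrafish skeletal muscle, out of 32520 genes in the count table: the heavy chains myhz1.3, smyhc1, smyhc2, smyhc3 and myh7bb, the light chains myl10 and myl13, and the myosin light chain kinase mylk2. They were taken from the study's list of genes that differed between the genotypes, so the difference between genotypes is what chose them. Their values in that comparison are given as a description. Calls of the members between genotypes appear only among the processing alternatives, and nothing is read from them. RNA-seq was performed at 3 dpf on tails including the caudal hematopoietic tissue, the site of blood formation at that stage. There were 2 libraries of asxl1+/+ and 2 of asxl1-/- embryos, labelled A and B in each genotype. Both genotypes came from asxl1+/- intercrosses on an AB background, with no treatment, and each library was a pool of about 20 tails. The mutants carry a CRISPR/Cas9 frameshift deletion that ends Asxl1, a chromatin regulator, before its C-terminal domains. The study made a shorter and a longer deletion and presents the longer one unless it names the other. It used this RNA-seq to look into why neutrophils of the mutants do not differentiate normally.

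Muscle myosin is a motor made of heavy chains, which hydrolyse ATP and pull on actin, and of light chains, which bind the neck of each heavy chain. Zebrafish trunk and tail muscle is laid down as a superficial layer of slow fibres over a deep mass of fast fibres, and each fibre type uses its own heavy chain genes. A myosin light chain kinase phosphorylates the regulatory light chain and so tunes the force of contraction.

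The depth ranged from 19423797 to 26281738 counts, with both asxl1-/- libraries below both asxl1+/+ libraries. asxl1 itself, counted over the whole gene, was at 65.3 and 65.3 CPM (counts per 1e6 counts of the scaled library total) in asxl1+/+ and at 57.1 and 57.6 CPM in asxl1-/-. Both mutant libraries were below both controls, at 87.9% of the control mean, and since a whole-gene count does not show the small deletion itself, it checks the labels only through the transcript level. Over all genes, the edgeR quasi-likelihood test on genotype alone called 12 of 19970 genes at a false discovery rate (FDR) below 0.05, which is 0.0601% of them. In the same test 616 of the 19970 genes had an unadjusted p below 0.05, which is the background for such counts below. Calls between genotypes below are from this test unless another is named, and those with the replicate letter as a block, which were more, are given among the processing alternatives. In 6002 genes, 30.1% of those tested, the libraries of the 2 genotypes did not overlap in CPM. Fast muscle genes were among the most abundant in every library, such as the calcium buffer pvalb1 at 12960 to 13562 CPM, while the heart markers MYL7 (ENSDARG00000019096) and nppa were at 0 CPM and at 0.00 to 0.13 CPM. By these markers the libraries held skeletal muscle and almost no RNA of MYL7 and nppa. Another heart marker, myh7, was at 56.9 to 77.7 CPM, so the amount of heart RNA is not judged from these genes. Since the libraries are bulk samples, fewer cells of a type and less RNA per cell cannot be told apart.

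The members lay on 5 chromosomes of GRCz11, and 4 of them stood in tandem arrays of closely related heavy chain genes. smyhc1, smyhc2 and smyhc3 lay in a row on the minus strand of chromosome 24, at 40656510 to 40668208, 40680153 to 40700596 and 40712794 to 40726073, and filled a stretch of 69.6 kb. myhz1.3 lay at 32262499 to 32274383 on the minus strand of chromosome 5, in an array of 103 kb with the fast heavy chains myhz2, myhc4, myha, myhz1.2 and myhz1.1. myh7bb (18722715 to 18757078) and mylk2 (32039386 to 32060885) lay on the plus strand of chromosome 23, the chromosome of asxl1, at 12 and 1.31 Mb from it. myl10 was at 33171501 to 33179988 on chromosome 10 and myl13 at 2470687 to 2481947 on chromosome 2. Read pairs were counted on exons without strand and only where they mapped to 1 place, so the split of counts within each array is uncertain, and a level there may be too low. myhz1.3 shared 488 of its 5961 exonic bases with si:ch211-158m24.12, a gene of the other strand that held 0 to 0.0769 CPM, and mylk2 shared 102 of its 3825 with TPX2. The reference name table gives the symbol MYH6 to the identifier of smyhc3 (ENSDARG00000114031), and it is called smyhc3 here as in the study.

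The members spanned a wide range of levels, given as CPM per kb of exonic length, and the fast heavy chain stood at the top. The mean over the 4 libraries was 1302 CPM per kb for myhz1.3, followed by 1116 for myl13. smyhc1 had 592 and myl10 had 531 CPM per kb. These pairs of neighbours overlapped over the libraries, since the lowest library of myhz1.3 (1129) lay under the highest of myl13 (1213), and the lowest of smyhc1 (560) under the highest of myl10 (575). The other neighbours did not overlap. smyhc2 was at 69.1, myh7bb at 23.9, smyhc3 at 5.06 and mylk2 at 1.0 CPM per kb. Within the slow array, smyhc1 took 88.8 to 89.5% of the counts of the 3 genes in each library, smyhc2 9.75 to 10.4% and smyhc3 0.674 to 0.835%. smyhc1 is the heavy chain of the first slow fibres of the zebrafish embryo.

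**Figure D1:**
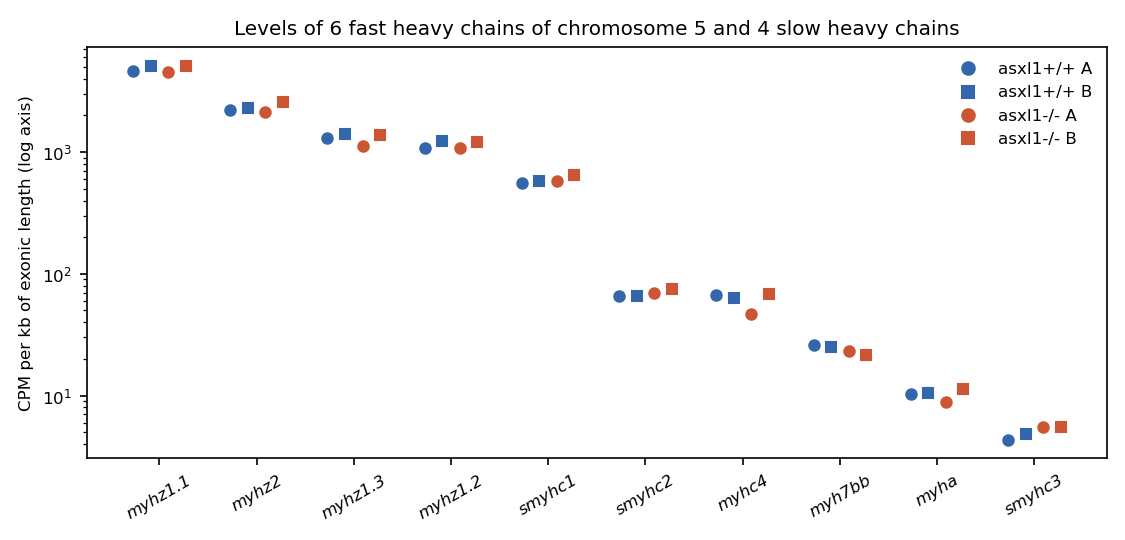
Level of the 6 fast heavy chains of the chromosome 5 array and the 4 slow heavy chains in each of the 4 libraries, as CPM per kb of exonic length on a log axis. The order runs from myhz1.1, with a mean of 4847 CPM per kb, to smyhc3 at 5.06, and smyhc1 at 592 stands between myhz1.2 (1156) and smyhc2 (69.1).

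Among the slow heavy chains, the 3 genes of the array were higher in asxl1-/- on average, and myh7bb was lower. smyhc1 was at 3443 and 3568 CPM in asxl1+/+ (A, B) and at 3536 and 4002 CPM in asxl1-/-. The genotypes overlapped, because the asxl1-/- A library lay between the asxl1+/+ libraries. The means were 3505 ± 87.9 and 3769 ± 330.0 CPM (SD, n = 2), a log2 fold change of 0.10 (SE 0.06), which was 0.012 without asxl1-/- B and 0.19 without asxl1-/- A. smyhc2 was at 388 and 389 CPM in asxl1+/+ and at 413 and 441 CPM in asxl1-/-. Both mutant libraries were above both controls, at 109.9% of the control mean, with a log2 fold change of 0.14 (SE 0.06), which was 0.088 without asxl1-/- B.

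smyhc3 had the largest difference of the array and also the fewest counts, 600 to 757 per library. It was at 26.0 and 29.1 CPM in asxl1+/+ and at 33.3 and 32.7 CPM in asxl1-/-, without overlap. Its log2 fold change was 0.26 (SE 0.10), and the difference was 0.36 between the A libraries and 0.17 between the B libraries on the log2 scale. smyhc2 and smyhc3 are thus the members of the array whose libraries separated, while smyhc1, which carried most of its counts, did not.

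myh7bb, a relative of mammalian MYH7B, a slow-tonic heavy chain gene, went the other way. It was at 162 and 157 CPM in asxl1+/+ and at 146 and 134 CPM in asxl1-/-, with both mutant libraries below both controls. The means were 159.8 ± 3.46 and 139.9 ± 8.06 CPM (SD, n = 2), and the log2 fold change was -0.19 (SE 0.07).

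myhz1.3, the fast heavy chain among the members, was at 7736 and 8377 CPM in asxl1+/+ and at 6728 and 8206 CPM in asxl1-/-. The genotypes overlapped, and the lower mutant mean came from the asxl1-/- A library. The means were 8057 ± 454 and 7467 ± 1045 CPM (SD, n = 2), a log2 fold change of -0.11 (SE 0.08). Between genotypes the difference was -0.20 on the log2 scale for the A libraries and -0.03 for the B libraries. Without asxl1-/- A the fitted value was 0.03 and without asxl1-/- B it was -0.26, so its direction rested on 1 library.

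The light chains were both higher in asxl1-/-, with no overlap. myl10, named for the mammalian regulatory light chain gene MYL10, was at 557 and 564 CPM in asxl1+/+ and at 594 and 637 CPM in asxl1-/-. Its log2 fold change was 0.14 (SE 0.05), and 0.083 without asxl1-/- B. myl13 was at 1196 and 1216 CPM in asxl1+/+ and at 1327 and 1395 CPM in asxl1-/-. Its means were 1206 ± 14.5 and 1361 ± 48.1 CPM (SD, n = 2), a log2 fold change of 0.17 (SE 0.05). The sources used here assign neither light chain to a fibre type. In the proportion between them, myl10 took 31.8 and 31.7% of their summed counts in asxl1+/+ and 30.9 and 31.3% in asxl1-/-.

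mylk2, named for the light chain kinase of mammalian skeletal muscle, had the largest fold change and the lowest level of the members. It had 89 and 151 counts in asxl1+/+ against 52 and 60 counts in asxl1-/-, that is 3.85 and 5.80 CPM against 2.65 and 3.02 CPM. Both mutant libraries were below both controls. The mutant mean was 58.6% of the control mean, with a log2 fold change of -0.78 (SE 0.23), and without asxl1+/+ B, the highest library, it was -0.44. TPX2, which shares exonic bases with mylk2, stood at 25.4 and 24.6 CPM in asxl1+/+ and at 27.2 and 27.7 CPM in asxl1-/-. Chromosome 23 held 9 of the 12 genes called over the genome, 1.17% of its 770 tested genes against 0.0156% of the 19200 on other chromosomes. Within 1 Mb on either side of mylk2, 1 of 39 other tested genes was called, and 15 had an unadjusted p below 0.05 in edgeR. Around myh7bb these numbers were 1 and 3 of 48, and over all tested genes 12 and 616 of 19970. The part of this neighbourhood in the lower values of mylk2 and myh7bb was not tested.

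**Figure D2:**
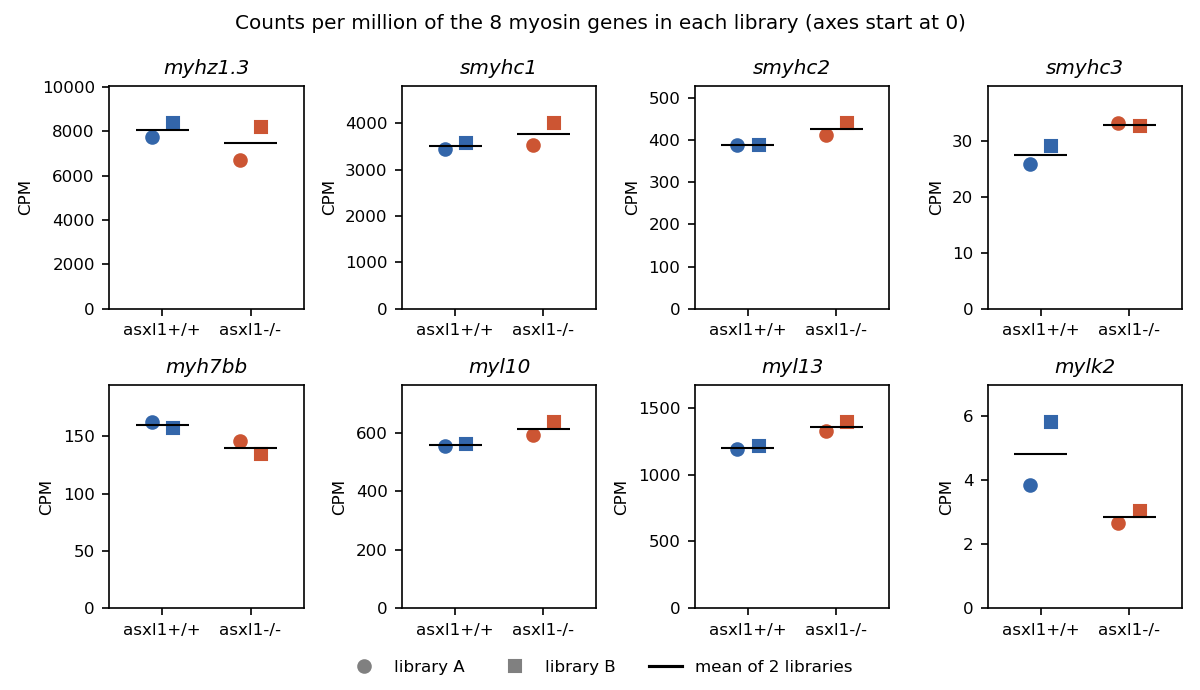
CPM of each member in each library (circle, library A; square, library B; bar, mean of 2 libraries), with every axis starting at 0. The genotypes overlap in myhz1.3 and smyhc1 and do not overlap in the other 6 members, of which mylk2 has the widest gap in proportion (2.65 and 3.02 CPM against 3.85 and 5.80).

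All 8 members passed the filter on low counts. In 6 of them the genotypes did not overlap, against 30.1% of all tested genes, and nothing is read from that count because the genes were listed for this difference. With 2 libraries a group, an exact two-sided permutation test could not go below a p of 0.333. The median log2 fold change was 0.12 over the members, with 5 above and 3 below 0, and 0.00 over all tested genes. In size, the members' fold changes ran from 0.10 to 0.78, and the median size over all tested genes was 0.09.

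The comparison of slow with fast heavy chains was made in each library as the summed CPM per kb of smyhc1, smyhc2, smyhc3 and myh7bb over that of myhz1.3. This ratio was 0.506 and 0.481 in asxl1+/+ and 0.597 and 0.547 in asxl1-/-, so both mutant libraries were above both controls. The means were 0.493 ± 0.0172 and 0.572 ± 0.0355 (SD, n = 2), a difference of 0.21 on the log2 scale beside a spread between libraries of one genotype of 0.07. It was 0.24 between the A libraries and 0.18 between the B libraries. The slow sum was higher on average in asxl1-/-, mostly through smyhc1, and myhz1.3 was lower on average. Each of them alone overlapped between genotypes, the slow sum at 4019 and 4143 CPM against 4127 and 4610 CPM. The members in this ratio were listed for the difference between genotypes, so the ratio is a description. Nothing is read from its separation, and 30.1% of all tested genes also did not overlap in CPM. With all 6 fast heavy chains of the array in place of myhz1.3, an alternative chosen after the data were seen, the ratio was 0.0705 and 0.0670 in the controls, and in asxl1-/- it was 0.0753 and 0.0726. The genotypes still did not overlap, and the difference was 0.11. As a share of the counts of all 10 heavy chains, the slow genes took 6.72% (95% exact Clopper-Pearson interval 6.68 to 6.76) and 6.40% (6.36 to 6.44) in asxl1+/+, and 7.14% (7.09 to 7.18) and 6.90% (6.86 to 6.94) in asxl1-/-. These intervals cover counting error only. When myl10, myl13 and mylk2 were put with myhz1.3, the difference was 0.06. These genes have no assigned fibre type here, so that value is not one of slow against fast.

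**Figure D3:**
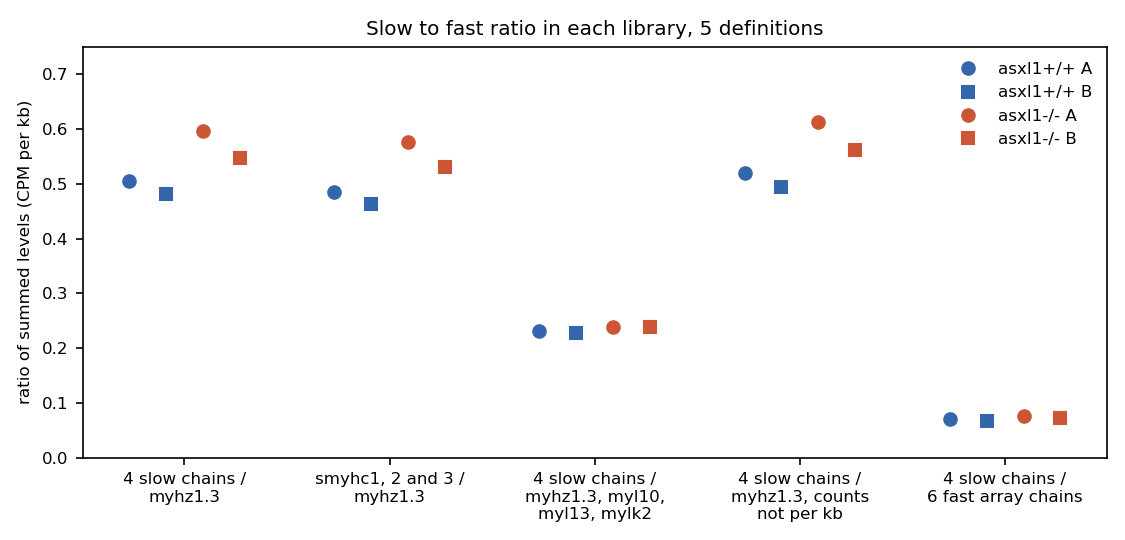
Ratio of slow to fast genes in each library under 5 definitions, from summed CPM per kb except where counts were not divided by length (linear axis from 0). The definition with myl10, myl13 and mylk2 beside myhz1.3 includes genes without an assigned fibre type. The mutant libraries lie above the controls in each definition, by 0.21 on the log2 scale against myhz1.3 and by 0.11 against the 6 fast heavy chains of the array. The slow genes and myhz1.3 were listed for the difference between genotypes, so nothing is read from this.

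The share of myhz1.3 within its own array was lower in asxl1-/-, and the log2 fold changes of its neighbours lay on both sides of 0. myhz1.3 took 13.9 and 13.8% of the counts of the 6 fast heavy chains in asxl1+/+ and 12.5 and 13.2% in asxl1-/-. myhz2 took 23.7 and 22.6% against 23.9 and 24.8%. myhz1.1, the most abundant of them, took 49.9 and 50.5% against 50.9 and 49.5%, and its log2 fold change between genotypes was -0.01 (SE 0.06). The log2 fold changes of myhz1.2 and myhz2 were -0.03 (SE 0.07) and 0.07 (SE 0.07), and that of myhc4 was -0.17 (SE 0.14). Of the 5 neighbours 0 were called between genotypes in edgeR on genotype alone (FDR 1.0 for each) and 0 had an unadjusted p below 0.05, while the fit with the block called myhc4. Whether myhz1.3 differed from them was not tested, because it was chosen on this contrast.

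The difference between the libraries labelled A and B was not used to choose the members and was tested in a fit with genotype and letter. What the libraries of a letter share is not stated. In edgeR, 1703 genes were called between letters, 8.53% of those tested, and 2 of the 8 members were. Both were higher in B, as were 4.27% of all genes. myhz1.3 was higher in B in both genotypes, by 0.11 in asxl1+/+ and 0.29 in asxl1-/- on the log2 scale, and the fitted difference was 0.20 (SE 0.03, FDR 2.5e-13). Its differences in the 2 genotypes lay further apart than this SE, which draws on the spread of other genes. smyhc1 was higher in B by 0.05 and 0.18, with a fitted difference of 0.11 (SE 0.03, FDR 0.0010). The fitted difference of myhz1.3 between genotypes was smaller, at -0.11. The other 6 members were not past the threshold, and the largest difference among them was 0.44 for mylk2 (SE 0.19, FDR 0.13). These calls did not all hold elsewhere: DESeq2 called neither gene (adjusted p 0.57 and 0.76), and without asxl1-/- A edgeR called neither (FDR 0.33 and 0.37). myhz1.3 was also lost without asxl1+/+ B (FDR 0.10), and smyhc1 without asxl1+/+ A (FDR 0.52), without asxl1-/- B (FDR 0.82) and without the genotype term (FDR 0.23).

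The other fast heavy chains of chromosome 5 were also higher in B by the fit, but not all of them in both genotypes. B minus A on the log2 scale was -0.07 in asxl1+/+ and 0.56 in asxl1-/- for myhc4. For myha it was 0.01 and 0.34. myhz1.1, myhz1.2 and myhz2 were higher in B in both genotypes. All 5 were called higher in B in edgeR, by 0.15 to 0.24 on the log2 scale, with an FDR of 0.042 or below. myhz1.1 was at 27830 and 30575 CPM in the A and B libraries of asxl1+/+ and at 27320 and 30801 CPM in those of asxl1-/-. Its difference was 0.15 (SE 0.02, FDR 4.3e-11), and that of myhz1.2 was 0.18 (SE 0.03, FDR 1.5e-10). DESeq2 also called these 2, and not the other 3. Without asxl1-/- A none of the 5 was called, with an FDR of 0.097 to 0.96, and 2 were called without asxl1+/+ A, 3 without asxl1+/+ B, 2 without asxl1-/- B and 2 without the genotype term. Of the slow array, 1 of 3 genes was called. Calls between letters were not limited to the arrays. Of the 32 other myosin genes tested, the 5 included, 11 were called, 10 higher and 1 lower in B. Of the 19 fast muscle markers 6 were called, all higher, and of the 6 tested genes of the slow muscle list 0. The calls of the myosin and fast lists overlap. MYL11 (ENSDARG00000002589 and ENSDARG00000053254) and MYL1 (ENSDARG00000014196) are counted in both. Of the 14 genes that fold, assemble and bind myosin 3 were called, all lower.

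**Figure D4:**
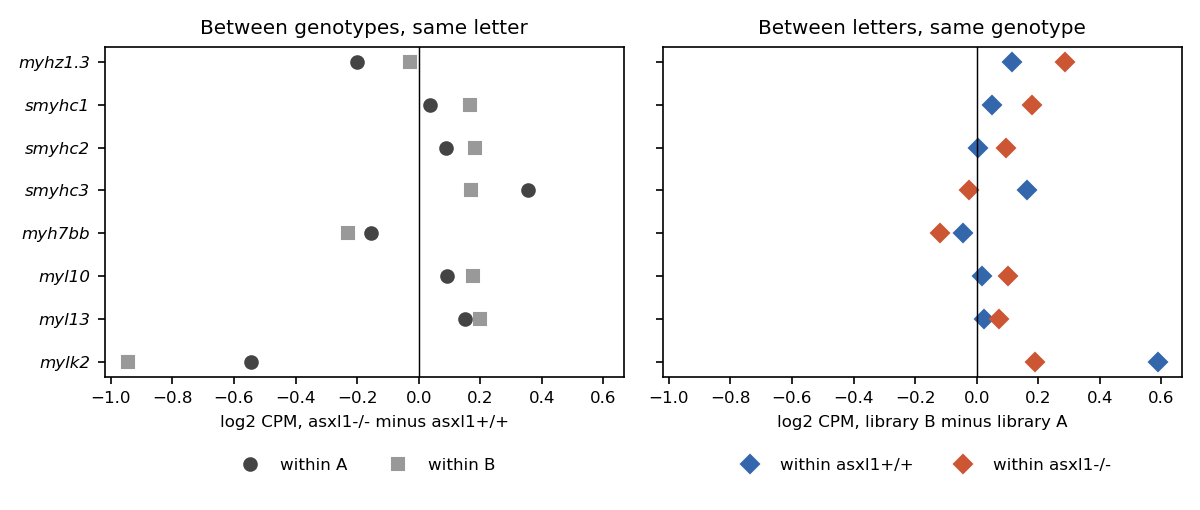
Differences in log2 CPM of each member, between genotypes within a letter (left) and between letters within a genotype (right), on the same axis. Each member has the same sign between genotypes in both letters, and myhz1.3 differs by 0.11 and 0.29 between letters and by -0.20 and -0.03 between genotypes. The members were listed for the difference between genotypes, so nothing is read from the shared sign.

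Among 33 other myosin genes, 32 had enough counts to be tested and 0 were called between genotypes in edgeR on genotype alone, beside 0.0601% of all genes. An unadjusted p below 0.05 was found for 2, beside 616 of all 19970 tested genes, and edgeR's exact test and DESeq2 also called 0. Their median log2 fold change was -0.02, with 13 above and 19 below 0, beside a median of 0.00 over all tested genes. The lowest p was that of myh7, a slow and cardiac type heavy chain in mammals. The study's list of genes that differed between genotypes also holds myh7, so its difference here is no independent evidence. It was at 77.7 and 77.7 CPM in asxl1+/+ and at 60.1 and 56.9 CPM in asxl1-/-, a log2 fold change of -0.41 (SE 0.08, FDR 0.18). myhc4, of the fast array, was at 399 and 380 CPM against 279 and 411 CPM, and only asxl1-/- A stood apart. The most abundant light chains were MYL1 (ENSDARG00000017441) at 9037 and MYL11 (ENSDARG00000053254) at 8276 CPM per kb, above every member, with log2 fold changes of -0.05 and -0.02. The 6 other kinases had a median log2 fold change of -0.07, and the most abundant, mylk5, was at 58.9 and 58.5 CPM against 55.7 and 58.6 CPM. The 4 non-muscle heavy chains, led by MYH9 (ENSDARG00000063295), had a median of 0.01.

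Genes that fold, assemble and bind myosin had values on both sides of 0. Of 14 tested genes 0 were called in edgeR on genotype alone, with 2 at an unadjusted p below 0.05, and the median log2 fold change was 0.01. mybpc2b, a fast-type myosin-binding protein C, was at 383 and 390 CPM in asxl1+/+ and at 466 and 497 CPM in asxl1-/-, a log2 fold change of 0.32 (SE 0.06, FDR 0.13). mybpc3, which is the cardiac form in mammals, was at 380 and 373 CPM against 417 and 410 CPM. Both mybpc2b and mybpc3 are on the study's list of genes that differed. MYOM2 (ENSDARG00000075433), MYOM1 (ENSDARG00000061249) and mybphb, the most abundant of this list, had log2 fold changes of -0.03, 0.03 and -0.07.

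The slow and fast fibre markers had values on both sides of 0. The slow list held 5 symbols matched to 7 genes, since the copies named TNNI1 and RYR1 could not be told apart. Some of these copies may therefore not be slow markers. Of the 6 genes of the slow list tested 0 were called in edgeR on genotype alone and 1 had an unadjusted p below 0.05. Of these 6, 3 were above and 3 below 0, with a median log2 fold change of -0.01. Their summed level was 934 to 947 CPM in asxl1+/+ and 1007 to 1010 CPM in asxl1-/-. tnnc1b, a slow troponin C, made up much of it, at 337 and 356 CPM against 385 and 389 CPM, a log2 fold change of 0.16 (SE 0.06, FDR 1.0). Of the 19 fast muscle markers tested 0 were called and 2 had an unadjusted p below 0.05, with 8 above and 11 below 0, and their summed level overlapped (123307 to 126873 against 121973 to 126698 CPM). Those 2 were mybpc2b and pvalb4, a calcium buffer, at 609 and 640 CPM in asxl1+/+ and at 705 and 739 CPM in asxl1-/-. The most abundant fast markers, pvalb1, pvalb2 and MYL1 (ENSDARG00000017441), had log2 fold changes of -0.02, -0.01 and -0.05. Of 13 regulators of fibre type 0 were called and 1 had an unadjusted p below 0.05, pax7b, a muscle precursor transcription factor, at 12.04 and 10.1 CPM against 16.9 and 13.2 CPM. pax7b lies on chromosome 23 with asxl1, where 1.17% of tested genes were called, against 0.0156% elsewhere. The part of that position in its value was not tested. The 3 most abundant regulators, 2 MEF2C genes (ENSDARG00000029764 and ENSDARG00000009418) and MEF2D, had values from -0.17 to -0.01. edgeR's exact test and DESeq2 called 0 genes of the myosin-binding, slow, fast and regulator lists, and the fit with the block called mybpc2b, mybpc3, tnnc1b, pvalb4 and pax7b, all higher in asxl1-/-. All of these are on the study's list of genes that differed in these libraries, so their differences are no independent evidence.

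**Figure D5:**
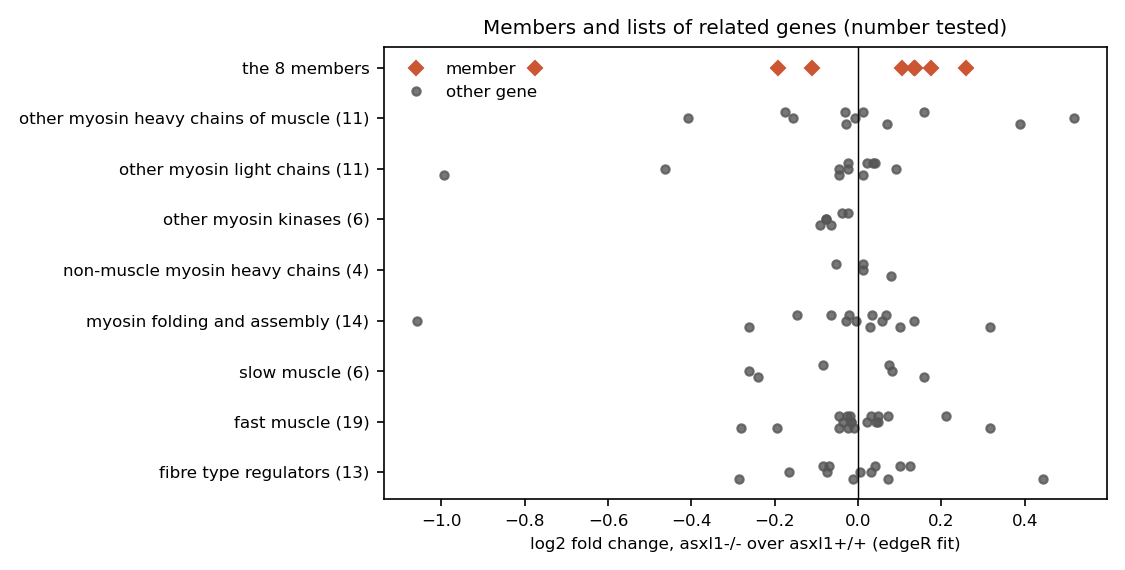
Log2 fold change between genotypes (asxl1-/- over asxl1+/+) of the 8 members and of the tested genes of 8 related lists, 1 point per gene from the edgeR fit. The members lie between -0.78 and 0.26, and most genes of the lists lie close to 0, with medians such as -0.07 for the other kinases and 0.01 for myosin folding and assembly. The members were listed for this difference and are left out of the lists, so nothing is read from their wider spread.

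Some markers of other cell types in the tail also stood apart between genotypes. The study's list of genes that differed in these libraries holds the neutrophil markers lyz, mpx and npsn. It also holds krt5, krt17, myh7, hbbe2 and slc4a1a, so the direction of all these genes here is no independent evidence. The neutrophil markers summed to 68.9 to 79.9 CPM in asxl1+/+ and 50.6 to 60.6 CPM in asxl1-/-. Of the 4 epidermal markers, krt5 and krt17 had log2 fold changes of -0.37 (FDR 0.12) and -0.31 (FDR 0.067). krt4, the most abundant of them, was at -0.01 with overlap between the genotypes. cldni was higher in asxl1-/- without overlap, at 0.07. The epidermal list summed to 31019 to 32452 CPM against 29468 to 30587 CPM. krt5 lies on chromosome 23, the chromosome of asxl1, and the part of that position in its value was not tested. The erythrocyte markers, led by hbbe2 and slc4a1a, summed to 87.9 to 120.5 CPM against 120.3 to 133.2 CPM. The heart list summed to 78.6 to 79.2 against 58.4 to 61.2 CPM, nearly all of it from myh7, with MYL7 at 0 CPM and TNNT2 (ENSDARG00000020610) at 0.15 to 0.27 CPM. The smooth muscle list (215 to 231 against 194 to 223 CPM), the notochord list (1041 to 1331 against 1140 to 1271 CPM) and the endothelial list (124.2 to 125.6 against 123.9 to 127.9 CPM) overlapped, and the neural list was at 302 to 304 against 283 to 295 CPM. Of these genes 0 were called in edgeR on genotype alone, with 6 at an unadjusted p below 0.05 over the 8 lists. edgeR's exact test called lyz, DESeq2 called 0, and the fit with the block called the neutrophil markers, krt5, krt17 and myh7, all lower in asxl1-/-, and hbbe2 and slc4a1a, both higher. Their part in the values of the members was not tested.

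The genes whose pattern over the 4 libraries was most like that of the 4 slow heavy chains were sought among 2321 named genes with a mean of at least 50 CPM. The summed slow heavy chains were at 4019 and 4143 CPM in asxl1+/+ and at 4127 and 4610 CPM in asxl1-/-, so that asxl1-/- B stood above the rest and the other 3 libraries lay close together. smyhc1 made up most of this sum, at 3443, 3568, 3536 and 4002 CPM in that order, so the search followed mainly smyhc1. myh7bb, also in the sum, was lowest in asxl1-/- B, at 162, 157, 146 and 134 CPM. By the Euclidean distance between mean-centred log2 CPM, the closest was tnnt2d (0.028), followed by si:dkey-199f5.8 (0.031), TMEM182 (0.033), txlnbb (0.035) and HHIP (0.041). tnnt2d was at 287, 293, 293 and 320.2 CPM in the same order of libraries.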

How the data were processed

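The authors mapped read pairs to GRCz11 with STAR 2.5.1b and counted them per gene on exons of Ensembl release 96 with featureCounts 1.6.4, and they deposited raw counts of 4 libraries with each gene's exonic length. Strand was not used, and pairs on several places or genes were not counted. These counts were tested with edgeR 4.0.16 in R 4.3.3, after filterByExpr by genotype (19970 genes) and TMM scaling. The quasi-likelihood test on genotype was the main test, with Benjamini-Hochberg adjustment over all tested genes and an FDR threshold of 0.05. The study itself used edgeR's exact test and listed 294 genes at that threshold, where the exact test here called 53. The cause of this gap was not tested. Letter B was tested against A in a fit with genotype and letter, which leaves 1 residual degree of freedom. CPM uses TMM-scaled totals. A level per kb divides by exonic length, and the spread beside a ratio is the SD pooled over genotypes. Nothing says what separates 2 libraries of a genotype beyond the pools, so p-values refer to the spread between these libraries. edgeR estimates that spread with help from the other genes. With 1 residual degree of freedom, an SE or FDR of the letter or block fit is therefore not a measure of a gene's own spread. Counts of library pairs differed beyond counting noise (chi-square per degree of freedom 3.04 to 6.94), so no library repeated another.

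The members and lists were chosen with earlier results of these data known. Named were all members, and of each list the genes past the threshold in the genotype fit or its fit with the letter as a block and the 3 with the highest level per kb, and the 5 genes nearest in pattern. Array neighbours, TPX2, myh7bb's and mylk2's surroundings and further values were added after values were seen. Names came from the study's list and a reference table that matched 29201 of 32520 identifiers. Symbols in capitals can stand for several zebrafish copies and are printed with the identifier where they do. The symbols vmhc, vmhcl, myh7l, mylpfb, mylz3, myl3, myl12.2, myom3 and hbbe1.1 were not matched. Their genes were analysed only where another symbol of the lists stood for the same identifier. In simulated counts of 19970 genes, each fit had 200 genes with a true log2 difference of 1 to find, of which 197 passed the filter. The spread was that of the block fit, and small letter differences were added for the genotype and block fits only. The true difference of 1 exceeded the size of every member's fold change. Of those 197 genes the genotype fit found 146, and it called 0 genes that were not drawn to change in either contrast. The block fit found 170 and called 6 such undrawn genes, and the letter fit found 175 and called 14. These numbers do not rank the fits for the real libraries, since what libraries of a letter share is not stated. Alternatives were the block, the exact test, DESeq2 1.42.0 without independent filtering, library size alone, other filters, other ratios, letter without genotype and each library left out.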

Additional observations from a re-analysis of the deposited data

How the results depend on the processing

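Without a filter edgeR called 19 genes between genotypes, with the exact test 53 and with DESeq2 27, against 12, and leaving out 1 library gave 9 to 80 (67 without asxl1-/- A, 80 without asxl1-/- B). The letters A and B do not establish a pairing, since the sources do not say what they share, and deviations of same-letter libraries correlated at 0.27 across genes. Counts of same-letter libraries also lay closest (chi-square over its degrees of freedom 3.04 and 3.20, against 4.82 to 6.94 for other pairs). With the letter as a replicate block, 301 genes (1.51%) were called, against 0.0601% on genotype alone. They included 2 of the 32 other myosin genes, myhc4 and myh7, both lower in asxl1-/- by the fit. For myhc4 the difference was -0.52 between the A libraries and 0.11 between the B libraries on the log2 scale. All 8 members were called with the block too, and 0 of them on genotype alone, by the exact test or by DESeq2. Nothing is read from the members' calls, since they were listed for this contrast. The block also called 2 genes of the myosin assembly list, 1 slow and 2 fast muscle markers and 1 fibre type regulator, all higher, 3 neutrophil and 2 epidermal markers, all lower, and 2 erythrocyte markers, both higher. These list genes are all on the study's list of genes that differed, so their calls are no independent evidence. Leaving out 1 library gave 0 to 1 other myosin genes (1 without asxl1-/- A, 1 without asxl1-/- B) and 0 to 1 members between genotypes, the 1 being myhz1.3 without asxl1-/- B. The log2 fold change of myhz1.3 ran from -0.26 to 0.028 over those fits. The other 7 members kept their direction in all 10 alternatives, though the values of smyhc2 and myl10 were 0.088 and 0.083 without asxl1-/- B. Nothing is read from that, since the members were listed for this contrast. For the 6 members without overlap, leaving out 1 library could not turn the direction in CPM. The ratio of slow to fast genes differed by 0.11 with the 6 fast heavy chains, against 0.21. The replicate block could not move the 0.21, since each letter holds 1 library of each genotype. With 1 library left out the ratio differed by 0.15 to 0.28. With the light chains and kinase, which have no assigned fibre type, put with myhz1.3, the difference was 0.057. Between letters, 558 genes were called without a genotype term and 156 by DESeq2, against 1703, and 234 to 523 with 1 library left out (234 and 247 without asxl1+/+ A and B, 250 and 523 without asxl1-/- A and B). Of the members, 1 was called without a genotype term and 0 by DESeq2. Without asxl1-/- B the letter difference of mylk2 was 0.82, against 0.44 with all libraries. In the same setting that of myhz1.3 was 0.21 and that of smyhc1 was 0.03. The letter differences with 1 library left out ran from 0.10 to 0.31 in myhz1.3 and 0.03 to 0.20 in smyhc1, and crossed 0 in smyhc2 (-0.041 to 0.14), smyhc3 (-0.10 to 0.25), myh7bb (-0.20 to 0.032), myl10 (-0.029 to 0.15), myl13 (-0.052 to 0.15) and mylk2 (-0.12 to 0.82). Those fits had fewer libraries and no genotype term, and otherwise the cause was not tested. With 2 libraries a group the number of libraries, and for mylk2 its 52 to 151 counts, limit the precision.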
